A study of Mus musculus with 6 samples.

Results

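The 7 genes described here encode the subunits of the NMDA receptor, the glutamate-gated channel that passes calcium when glutamate, a co-agonist and depolarisation coincide. They were taken from the deposited table by symbol, 1 row each, from 24453 gene rows. RNA was taken from visual cortex at postnatal day 14, in 3 libraries of Chrdl1 KO mice and 3 libraries of WT mice, all C57BL/6J males. *Chrdl1* encodes the protein chordin-like 1, which astrocytes secrete and which binds bone morphogenetic proteins. Per the labels' protocols, both genotypes underwent paraformaldehyde perfusion ahead of dissection, and the libraries were made from mRNA with strand marking. The labels do not describe how the knockout was made. Nothing in the labels ties a library to 1 animal, so the p-values here speak of library-to-library spread, part of which may be technical.

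Each library title holds a code and a number from 1 to 3, and each pairing of code and number is shared by 1 KO and 1 WT library. A last number in the title is 3 in every KO library and 1 in every WT library, so whatever it marks and genotype cannot be told apart. The labels do not say what any of these stands for, and since every code has its own number from 1 to 3, code and number cannot be told apart. The libraries are called here by genotype and that number, the title number. Estimated depth was 22.6 to 31.9 megareads in KO and 27.5 to 38.2 megareads in WT. *Chrdl1*, the targeted gene, measured 0.161 ± 0.036 FPKM in KO and 3.44 ± 0.299 FPKM in WT (SD, n = 3 each), and it was low in each library labelled KO (limma adjusted p = 0.000489).

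A working NMDA receptor is a tetramer that always holds GluN1, the subunit that binds the co-agonist glycine or D-serine. The partners are GluN2 subunits, which bind glutamate and set the kinetics, or GluN3 subunits, which bind glycine. In rodent forebrain GluN2B is present from before birth, GluN2A is added during the first postnatal weeks, and in visual cortex this exchange is hastened by visual experience. GluN2C is known best from cerebellar granule cells and glia, GluN2D from interneurons and early brain, and GluN3A from the period of synapse formation.

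The stretch below codes for the conserved end of the third membrane segment, part of the channel gate. It is shown because reads of one member could be mistaken for another where sequences are this alike. The sequences are from GENCODE vM21 transcripts (GRCm38), 5′ to 3′ in the sense of the gene. Capitals mark the 17 of 30 bases that are the same in all 7 members, of which 5 are shown.
Grin1: tccTAcACtGCcAAccTgGCaGCctTCcTG
Grin2a: agtTAcACaGCcAAccTgGCtGCctTCaTG
Grin2c: agcTAcACgGCcAAtcTgGCaGCctTCaTG
Grin3a: acaTAcACaGCgAActTgGCtGCtgTCaTG
Grin3b: agtTAcACaGCcAAccTgGCaGCtgTCaTG
The *Grin2a* stretch lies in coding exon sequence at chr16:9653444-9653473 on the minus strand, in exon 10 of the transcript used. The *Grin1* stretch is in exon 15 at chr2:25297196-25297225, minus strand. Any pair of members had 21 to 27 of the 30 bases in common. Over the whole transcripts, 0 of 21 pairs of members shared a window of 50 identical bases.

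*Grin1*, which encodes the obligatory GluN1, was by far the most abundant member. It measured 139, 124 and 147 FPKM in KO libraries 1, 2 and 3, against 128, 135 and 137 FPKM in WT libraries 1, 2 and 3. FPKM are fragments divided by a model's exon length and its library's depth, so members are compared over the counted part of each gene only. For *Grin2a* and *Grin2b*, GENCODE annotates 9812 and 16572 exonic bases beyond the 3′ end of the model, and reads there are not in their FPKM. The KO values of *Grin1* spanned all 3 WT values, and its 6 libraries lay within 1.18-fold of each other. In GENCODE, 1307 of the 2891 exon bases of the antisense gene *Grin1os* lie in *Grin1* exons. The row of *Grin1os* held 68.8 to 84.7 FPKM in KO and 73.1 to 78.6 FPKM in WT, and since the counting is not stated to use strand, reads of the 2 genes cannot be told apart.

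*Grin2a*, which encodes GluN2A, measured 1.37, 3.14 and 1.204 FPKM in KO libraries 1, 2 and 3, against 1.40, 3.67 and 0.927 FPKM in WT libraries 1, 2 and 3. These rest on 163, 320 and 173 estimated reads in KO and 240, 454 and 142 in WT. *Grin2b*, which encodes GluN2B, measured 3.24, 8.03 and 2.29 FPKM in KO libraries 1, 2 and 3, against 3.39, 11.2 and 1.49 FPKM in WT libraries 1, 2 and 3. For both genes the libraries numbered 2 were the highest and those numbered 3 the lowest in each genotype. The 6 libraries stood in the same order for both genes, from WT 3 at the bottom through KO 3, KO 1, WT 1 and KO 2 to WT 2 at the top. The genotypes overlapped fully, with the highest and the lowest value both in WT.

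*Grin2c*, which encodes GluN2C, measured 6.15, 8.10 and 6.82 FPKM in KO libraries 1, 2 and 3, against 6.14, 7.56 and 6.72 FPKM in WT libraries 1, 2 and 3. *Grin2d*, which encodes GluN2D, measured 6.48, 4.93 and 4.59 FPKM in KO, against 5.48, 5.43 and 4.85 FPKM in WT, in the same order of libraries. KO and WT overlapped for both genes, and their 6 libraries lay within 1.32-fold and 1.41-fold. *Grin2c* was higher in KO within 3 of 3 numbers, by less than the spread between numbers. Over all genes tested, 21.9% had 1 direction in 3 of 3 numbers.

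*Grin3a*, which encodes GluN3A, measured 15.1, 10.9 and 11.8 FPKM in KO libraries 1, 2 and 3, against 13.7, 11.6 and 10.5 FPKM in WT libraries 1, 2 and 3. Its highest value in each genotype was in number 1. *Grin3b*, which encodes GluN3B, the glycine-binding subunit known best from motor neurons, measured 1.11, 0.893 and 1.14 FPKM in KO, against 1.03, 0.948 and 1.35 FPKM in WT. This is 66 to 119 estimated reads in KO and 85 to 150 in WT. The 3′ end of its model overlaps *Tmem259* on the other strand, a row with 48.8 to 54.7 FPKM in KO and 50.2 to 50.7 FPKM in WT. Without a stated strand setting the reads of *Grin3b* and of its neighbour cannot be told apart. How much of the low *Grin3b* level is its own is therefore not known.

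**Figure D1:**
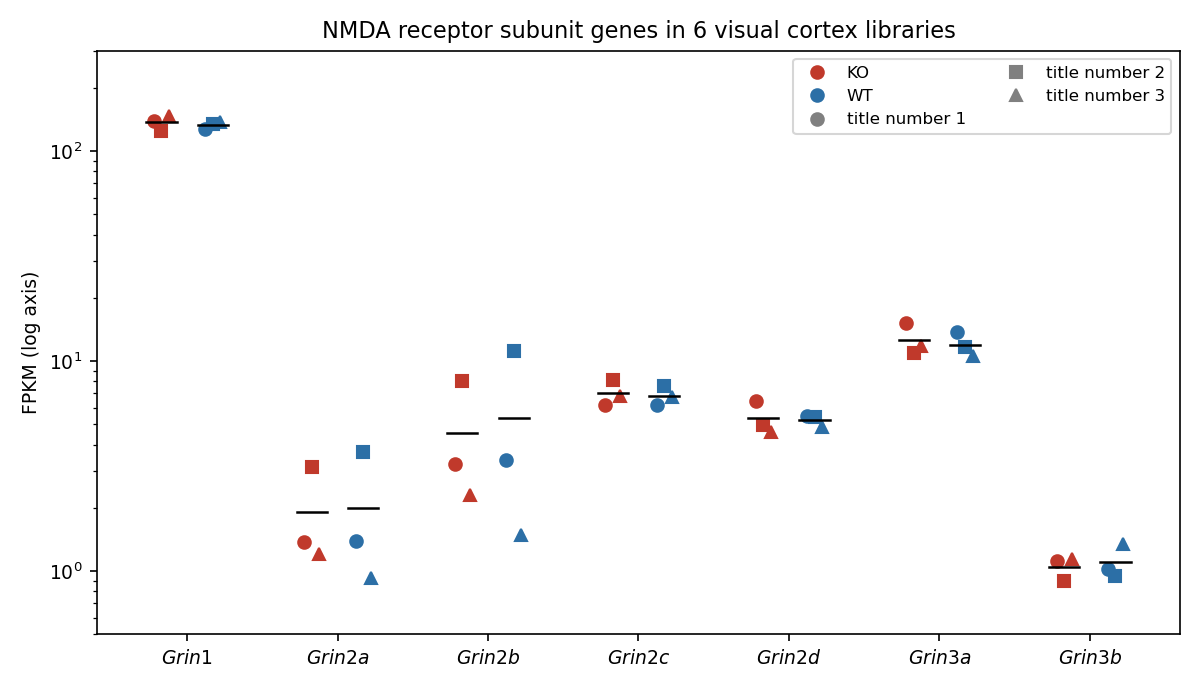
FPKM (log axis) of the 7 subunit genes in each library, KO left of WT within a gene, with marker shape for the title number and a black line at each group mean. *Grin1* sits at 124 to 147 FPKM in every library, while *Grin2a* and *Grin2b* spread over 3.96-fold and 7.51-fold and are highest in both libraries numbered 2.

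On the mean over 6 libraries, the order was *Grin1* at 135 FPKM, *Grin3a* at 12.3, *Grin2c* at 6.92, *Grin2d* at 5.29, *Grin2b* at 4.93, *Grin2a* at 1.95 and *Grin3b* at 1.08. *Grin1* and *Grin3a*, and *Grin3a* and *Grin2c*, did not overlap. The neighbours below that did overlap: *Grin2c* exceeded *Grin2d* in 5 of 6 libraries, *Grin2d* exceeded *Grin2b* in 4 of 6, and *Grin2a* exceeded *Grin3b* in 5 of 6. *Grin2b* was above *Grin2a* in 6 of 6 libraries, although their ranges overlapped across libraries. The place of *Grin2b* depended on the library, since it was the highest GluN2 gene in WT library 2, close to *Grin2c* in KO library 2 (8.03 against 8.10 FPKM), and below both *Grin2c* and *Grin2d* in the remaining libraries.

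The balance of *Grin2a* to *Grin2b* RNA, over the counted part of each gene, was compared between the genotypes. Protein was not measured, so it does not show how far the exchange of GluN2B for GluN2A had gone. The FPKM ratio of *Grin2a* to *Grin2b* was 0.424, 0.391 and 0.525 in KO libraries 1, 2 and 3, against 0.412, 0.329 and 0.623 in WT libraries 1, 2 and 3. In both genotypes it was lowest in number 2 and highest in number 3, and the WT values lay on both sides of all 3 KO values. The log2 ratio averaged -1.17 ± 0.22 in KO and -1.19 ± 0.47 in WT (SD, n = 3 each), a difference of 0.014 with p = 0.9 in an exact 2-sided permutation test, for which 0.1 is the smallest value that 3 against 3 libraries allow. Within numbers 1, 2 and 3 the log2 difference was 0.04, 0.25 and -0.25. Without both libraries numbered 2, an alternative chosen after seeing the data, the difference was -0.10.

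The ratio of *Grin2a* to *Grin2b* was also set against counting error. The exact binomial 95% interval of the FPKM ratio, which covers counting error only, was 0.345 to 0.442 in KO library 2 and 0.440 to 0.624 in KO library 3. In WT the intervals were 0.297 to 0.364 in library 2 and 0.511 to 0.758 in library 3. The KO intervals overlapped at their ends and the WT intervals did not overlap. The levels spanned 3.96-fold for *Grin2a* and 7.51-fold for *Grin2b* over the 6 libraries.

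**Figure D2:**
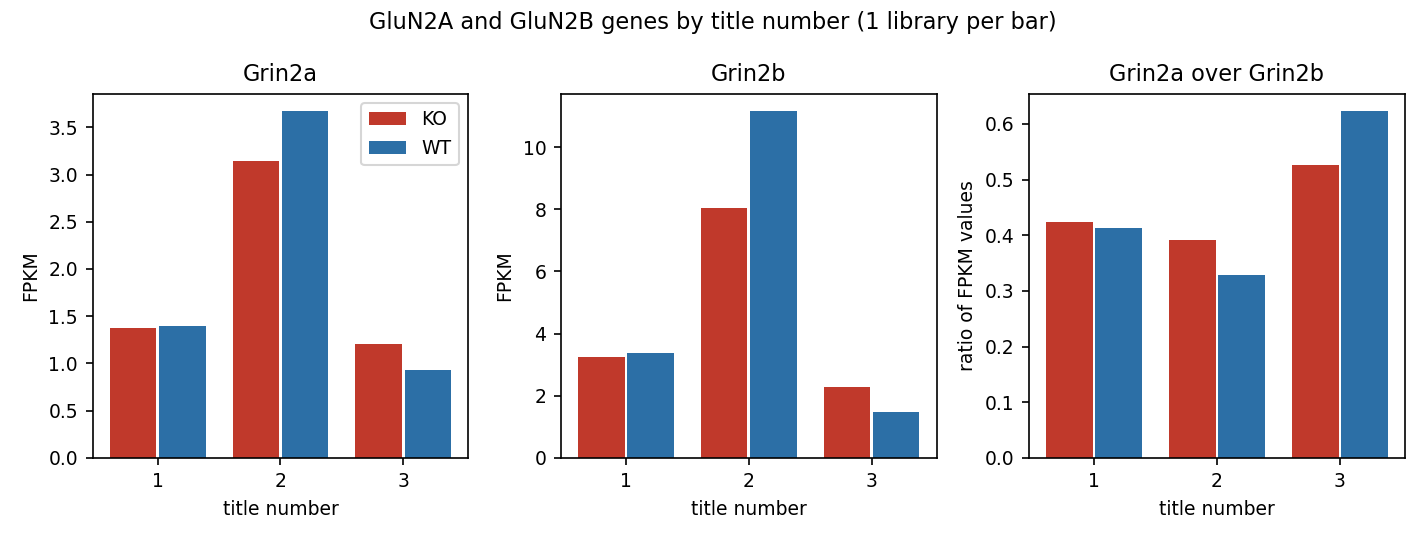
FPKM of *Grin2a* and of *Grin2b* and their ratio, 1 bar per library, by title number with KO left of WT. *Grin2b* reaches 8.03 FPKM in KO and 11.2 FPKM in WT at number 2, where the ratio is at its lowest, 0.391 in KO and 0.329 in WT.

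Within the 4 GluN2 genes, *Grin2a* took 9.67 ± 2.86% of the summed FPKM in KO and 9.45 ± 3.38% in WT (SD, n = 3 each; exact permutation p = 1). *Grin2b* took 15.4% to 33.2% in KO and 10.6% to 40.1% in WT, *Grin2c* 33.5% to 45.8% in KO and 27.2% to 48.0% in WT, and *Grin2d* 20.4% to 37.6% in KO and 19.5% to 34.7% in WT. The 4 GluN2 genes together came to 12.4%, 19.5% and 10.1% of the *Grin1* level in KO libraries 1, 2 and 3, against 12.8%, 20.7% and 10.2% in WT libraries 1, 2 and 3. The log2 ratio of this sum to *Grin1* was lower in KO within 3 of 3 numbers, with a mean difference of -0.05 and p = 0.7 in the exact 2-sided permutation test. That test ignores the numbers. An exact 2-sided sign-flip test within numbers gave p = 0.25, the smallest value that 3 pairs allow. The sum of all 7 genes was 160 to 175 FPKM in KO and 159 to 175 FPKM in WT.

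No subunit gene passed the test of KO against WT. Limma on log2(FPKM + 1) called 0 of 7 at a Benjamini-Hochberg adjusted p under 0.05, and 0 of 7 had an unadjusted p under 0.05, against 0.63% of all genes. The share called among all 12863 genes was 0.00777%, which is *Chrdl1* alone. All 7 passed the filter at a mean of 1 FPKM, in KO alone and in WT alone. Limma-voom on estimated reads called 0 of 7 as well. The groups overlapped for every member, where 2.95% of all genes did not overlap.

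The log2 fold changes (KO minus WT) ran from -0.04 for *Grin3b* to 0.07 for *Grin3a*, with a median of 0.0089, beside 0.0054 over all genes tested. For *Grin1*, at 137 ± 11.6 FPKM in KO and 133 ± 4.86 FPKM in WT (SD, n = 3 each), the log2 fold change was 0.04 with a 95% interval of -0.16 to 0.24. The intervals of *Grin2c*, *Grin2d*, *Grin3a* and *Grin3b* lay between -0.29 and 0.38. These limits describe log2(FPKM + 1), which understates changes of low genes such as *Grin3b*.

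*Grin2a* and *Grin2b* had far wider intervals than the other members. *Grin2a* averaged 1.91 ± 1.07 FPKM in KO and 1.999 ± 1.47 FPKM in WT, with a log2 fold change of 0.0016 and an interval of -0.82 to 0.82. *Grin2b* averaged 4.52 ± 3.08 FPKM in KO and 5.35 ± 5.13 FPKM in WT (SD, n = 3 each), with a log2 fold change of -0.03 and an interval of -1.37 to 1.32. With title number as a replicate block the intervals became -0.20 to 0.20 for *Grin2a* and -0.35 to 0.30 for *Grin2b* (limma adjusted p = 0.999 for each). Within numbers 1, 2 and 3 the KO level of *Grin2b* was 0.957, 0.719 and 1.54 times the WT level, so the direction differed between the libraries. *Grin2a* showed the same signs, at 0.984, 0.855 and 1.30 times.

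**Figure D3:**
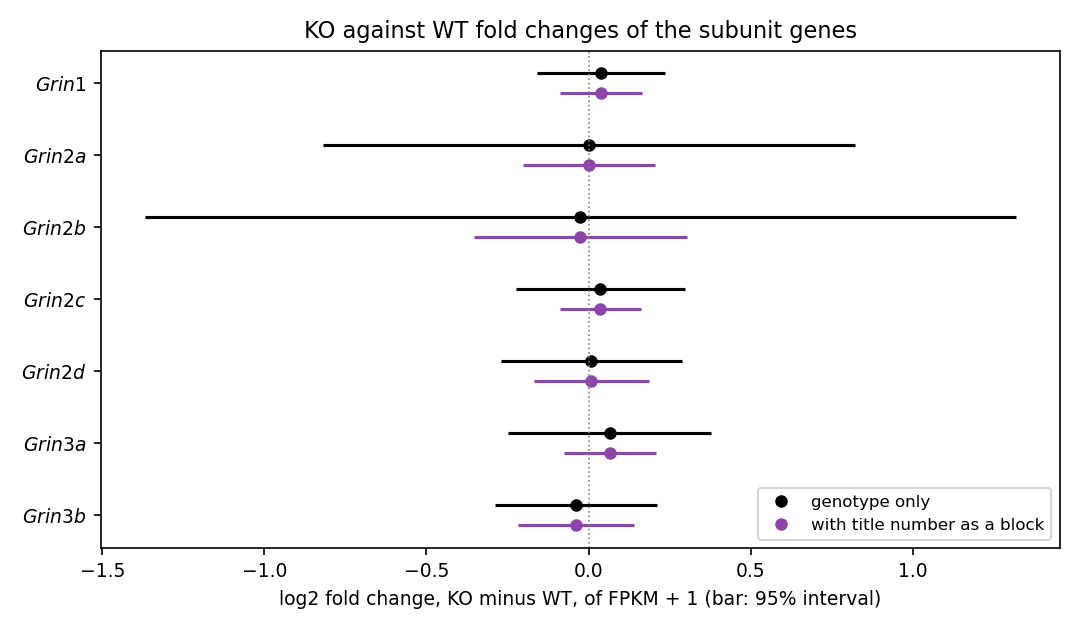
Log2 fold change (KO minus WT) of each subunit gene on the log2(FPKM + 1) scale, with 95% intervals, from limma with genotype only (black) and with title number as a block (purple). All intervals include 0, and the widest is that of *Grin2b*, -1.37 to 1.32 without the block and -0.35 to 0.30 with it.

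Title number was tested by the F test of its terms in the limma fit with genotype. It called 4 of 7 members, *Grin2a*, *Grin2b*, *Grin2c* and *Grin3a*, with adjusted p of 0.00265, 0.00257, 0.029 and 0.0207. The share called among all genes was 30.6%, so a call by itself is common here. *Grin2d* (adjusted p = 0.105), *Grin3b* (0.198) and *Grin1* (0.279) were not called by the same limma test. Without the filter on low values, 2 of 7 were called, *Grin2a* and *Grin2b*, beside 1347 of all 19781 genes then tested.

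The size of the change set *Grin2a* and *Grin2b* apart from the other members. The gap between the highest and lowest of the 3 number means was 1.87 on the log2(FPKM + 1) scale for *Grin2b*, the sixth widest of 12863 genes, and 1.09 for *Grin2a*, in place 82. The median gap over all genes was 0.20, and those of the other 5 members were 0.13 to 0.34. The fold of number 2 over number 3 was 3.50 in KO and 7.51 in WT for *Grin2b*, and 2.61 in KO and 3.96 in WT for *Grin2a*. For *Grin1*, *Grin2c*, *Grin2d*, *Grin3a* and *Grin3b* it lay between 0.782 and 1.19 in KO and between 0.702 and 1.13 in WT.

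The same 2 genes differed from the other members in where their counted models end. The *Grin2b* model (NM_008171, chr6:135729805-136173511, minus strand, mm10) holds 7488 bases of exon, and the longest GENCODE transcript of the gene, with 24060 bases, runs on for 16572 exonic bases beyond its 3′ end. The *Grin2a* model (NM_008170, chr16:9577710-9992533, minus strand) holds 4499 bases of exon, and GENCODE annotates 9812 exonic bases beyond its 3′ end. For *Grin2d* this was 600 bases, and for the other 4 members 0. GENCODE also lists shorter transcripts of *Grin2a* and *Grin2b*. Reads from the stretch beyond a model are not in its FPKM, so the levels of *Grin2a* and *Grin2b*, their ratio and their place in the order of members are those of the counted part of each gene.

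Over the whole table, genes with long stretches beyond their models were more often higher in number 2 than in number 3. A GENCODE match was found for 12445 of 12863 genes, 96.8%. Among the 7028 genes with 0 bases beyond, the median log2 difference, number 2 minus number 3, was -0.02 in KO and -0.02 in WT. It was 0.10 in KO and 0.11 in WT for the 1128 genes with at least 1000 and under 5000 bases, and 0.31 in KO and 0.41 in WT for the 133 genes with at least 5000 and under 10000 bases. The 26 genes with 10000 or more, which include *Grin2b*, had medians of 0.16 in KO and 0.23 in WT, below those of the previous bin. Of the 100 genes with the widest gap, which include *Grin2a* and *Grin2b*, 28 had 5000 or more bases beyond their models, against 1.28% of all matched genes. Of the same 100, 85 were highest in number 2, against 4239 of all 12445. The part of the gene models in the title-number difference was not tested.

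**Figure D4:**
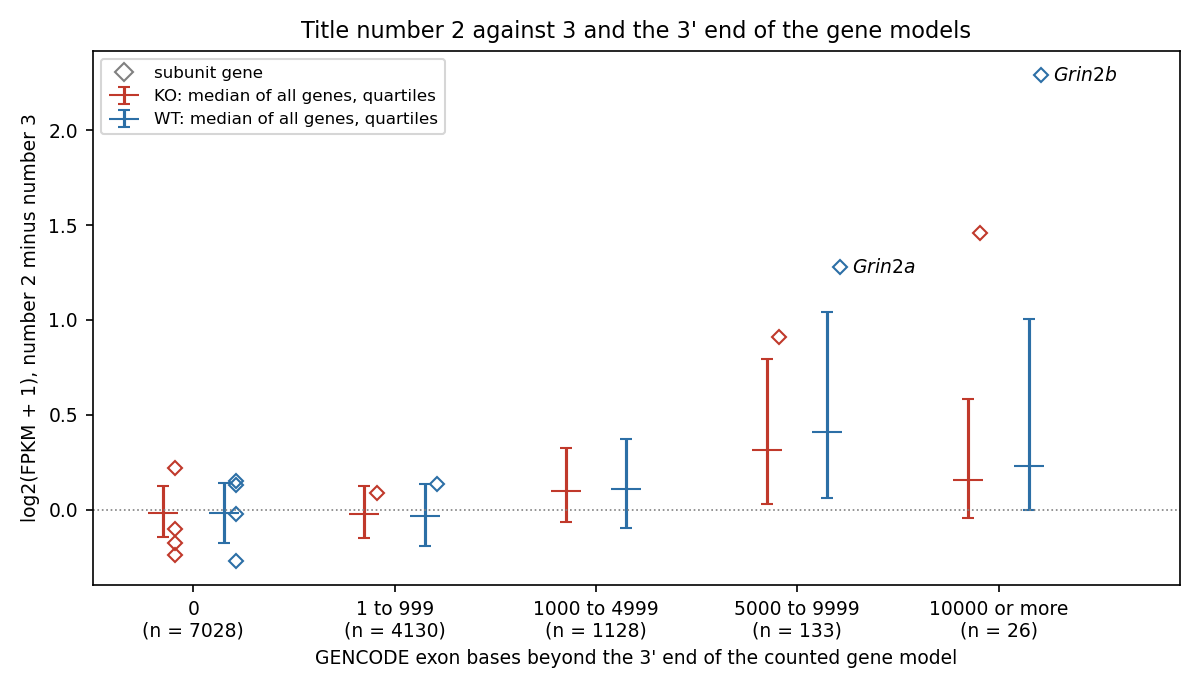
Log2(FPKM + 1) of library 2 minus library 3 within KO (left in each bin) and WT, against the GENCODE exon bases beyond the 3′ end of the counted model; bars give the median and quartiles of all genes in the bin and diamonds the subunit genes. The median rises to 0.31 in KO and 0.41 in WT for genes with at least 5000 and under 10000 bases, and the *Grin2a* and *Grin2b* diamonds lie above the upper quartile of their bins in both genotypes.

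The genes most like *Grin1*, *Grin2a*, *Grin2b* and the ratio of *Grin2a* to *Grin2b* across the 6 libraries were picked by Pearson's r of log2(FPKM + 1), among 8811 genes that averaged at least 5 FPKM. These are descriptions over libraries that share title numbers, so they rest largely on the same 3 pairs. For *Grin2b* they were *Yeats2* (r = 0.997), *Atg2a*, an autophagy gene (0.997), and *Tnr*, which encodes the matrix protein tenascin-R (0.996). *Tnr* stood at 9.35, 17.8 and 7.26 FPKM in KO libraries 1, 2 and 3 and at 8.93, 20.1 and 5.45 FPKM in WT, and GENCODE annotates 6807 exonic bases beyond its model. *Yeats2* and *Atg2a* had 0 and 31 such bases and narrow ranges of 4.596 to 5.85 and 6.53 to 8.61 FPKM over the 6 libraries. For *Grin2a* they were *Rims1*, which encodes a presynaptic active-zone scaffold (0.998), *Ptprj*, a receptor tyrosine phosphatase gene (0.997), and *Smcr8* (0.997), with 2171, 0 and 0 bases beyond. An r above 0.99 was reached by 17 genes for *Grin2a* and 18 for *Grin2b*.

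For *Grin1* the most alike were *Ap3d1*, an adaptor complex gene (0.986), *Nol6* (0.980) and *Usp27x* (0.970). For the log2 ratio of *Grin2a* to *Grin2b* they were *Creld2* (0.999), *Mdh1*, the cytosolic malate dehydrogenase gene (0.993), and *Cox17*, a copper chaperone gene of cytochrome oxidase (0.993). *Mdh1* stood at 396, 387 and 448 FPKM in KO libraries 1, 2 and 3 and at 386, 357 and 475 FPKM in WT, lowest in number 2 and highest in number 3, as the ratio was.

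Genes that act with the receptor did not pass either. Of 52 genes in 5 lists, 48 passed the filter on low values, and limma called 0 of 48 in KO against WT, with 0 at an unadjusted p under 0.05 and 0 called by limma-voom. The median log2 fold change over the 48 was 0.003, with 29 above 0 and 19 below. Of the same 48, 20 were called by title number, 41.7%, beside 30.6% of all genes. *Dao*, *Shmt1*, *Slc1a5* and *Rest* were under 1 FPKM and were not tested.

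Of 15 genes for proteins that anchor or carry the receptor, 7 had log2 fold changes above 0 and 8 below, none called. *Kif17*, the kinesin that carries GluN2B along dendrites, averaged 4.45 ± 0.394 FPKM in KO and 4.85 ± 0.253 FPKM in WT (SD, n = 3 each), with a log2 fold change of -0.10 (interval -0.30 to 0.09). It was lower in KO within 3 of 3 numbers. *Apba1*, the adaptor between that kinesin and its cargo, and *Gipc1*, a PDZ protein gene, had log2 fold changes of 0.09 and -0.05.

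Of 12 kinase and phosphatase genes, 8 were above 0 and 4 below, none called. *Ptpn5*, which encodes STEP, a striatum-enriched phosphatase that removes GluN2B from the surface, stood at 52.8, 54.5 and 51.7 FPKM in KO libraries 1, 2 and 3, against 55.9, 55.4 and 56.6 FPKM in WT. The groups did not overlap, as for 2.95% of all genes, with a log2 fold change of -0.08 (limma adjusted p = 0.9999). *Cdk5*, whose kinase acts on GluN2A and GluN2B, was at -0.05.

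Of 8 tested genes for co-agonist synthesis and transport, 4 were above 0 and 4 below, none called. *Psph*, the last enzyme of serine synthesis, *Slc6a9*, the glycine transporter GlyT1, and *Psat1*, another serine synthesis enzyme, had log2 fold changes of -0.04, -0.02 and -0.02. Of 8 genes for downstream signalling, 8 were above 0, with a median of 0.05 and a range of 0.0006 to 0.10, none called. Over all genes tested, 6921 of 12863 were above 0, with a median of 0.0054. *Creb1*, the transcription factor gene, stood at 6.68, 6.21 and 5.90 FPKM in KO libraries 1, 2 and 3, against 5.88, 5.84 and 5.64 FPKM in WT. Its groups did not overlap, as for 2.95% of all genes (log2 fold change 0.10, limma adjusted p = 0.9999). *Tiam1* and *Rasgrf1*, exchange factor genes whose products bind the receptor, were at 0.09 and 0.09. Of 5 tested transcription regulators of subunit genes, 2 were above 0 and 3 below, and *Nrf1*, *Rcor1* and *Sp1* were at 0.03, -0.07 and 0.04.

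**Figure D5:**
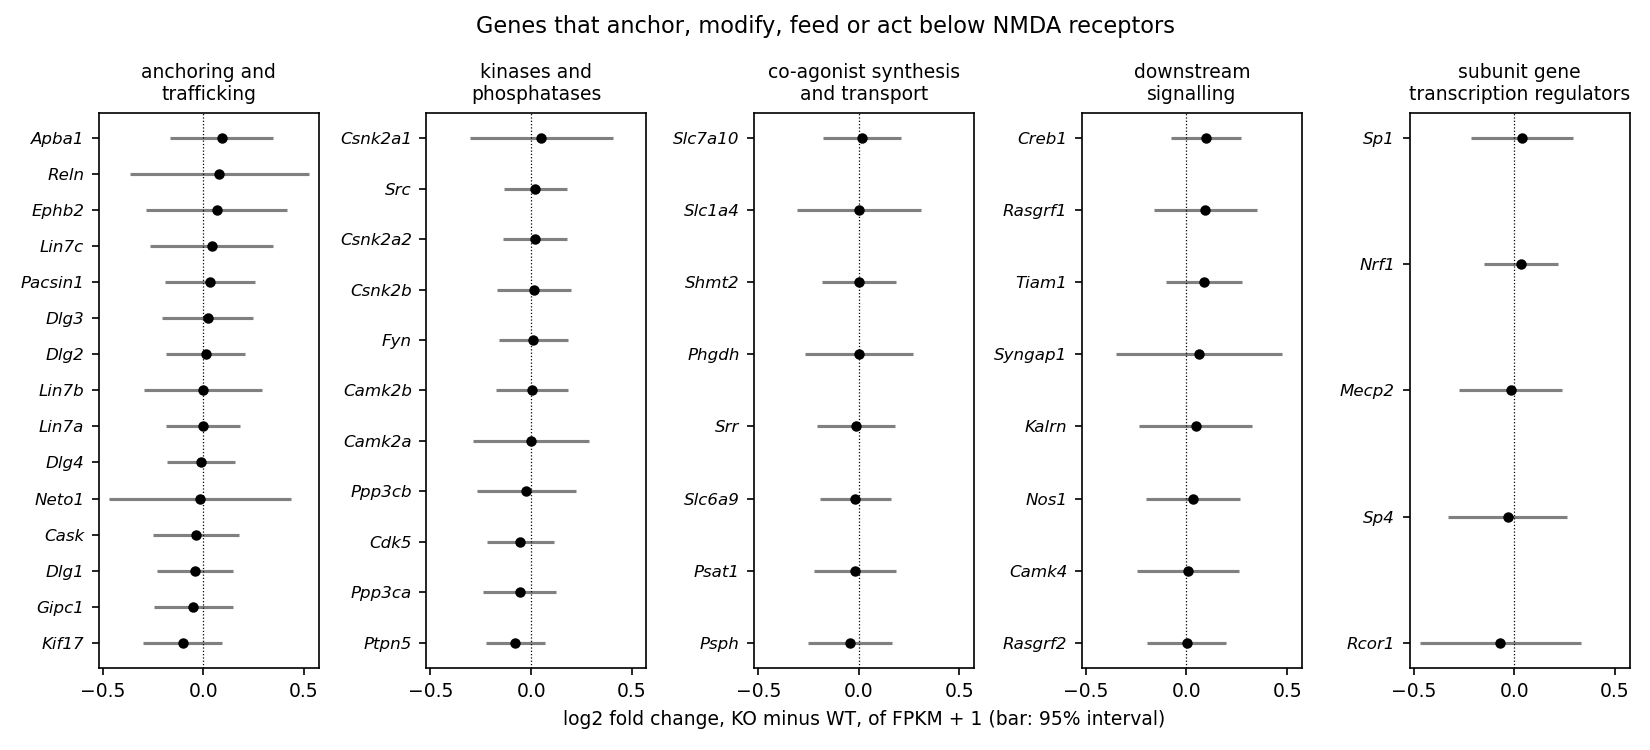
Log2 fold change (KO minus WT) on the log2(FPKM + 1) scale with 95% intervals for the tested genes that act with NMDA receptors, in 5 lists, with 1 of the 48 not drawn. Every interval drawn includes 0, and the points lie between -0.10 for *Kif17* and 0.10 for *Creb1*.

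The libraries carried the markers of cortical excitatory neurons. All 10 were tested, with *Slc17a7*, the cortical vesicular glutamate transporter gene, at 565 to 689 FPKM in KO and 568 to 674 FPKM in WT. The sum of these 10 was 797, 721 and 841 FPKM in KO libraries 1, 2 and 3 and 732, 742 and 824 FPKM in WT. The 6 cerebellar granule cell markers summed to 12.6 FPKM in each KO library and 10.4 to 12.9 FPKM in WT. Of these, 3 were under 1 FPKM on average, among them *Gabra6*, a defining one, at no more than 0.032 FPKM. Over 13 marker lists, 0 of 92 tested genes were called in KO against WT by limma. An unadjusted p under 0.05 was found for 6 of the 92, against 81 of all 12863 genes, 0.63%. Of these 6, 4 were striatal neuron markers and 2 meningeal fibroblast markers.

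No striatal neuron marker was called either. The 10 striatal neuron markers summed to 131, 312 and 135 FPKM in KO libraries 1, 2 and 3 and to 316, 295 and 267 FPKM in WT, with 10 of 10 log2 fold changes below 0, 4 of them at an unadjusted p under 0.05 by limma. KO library 2 lay within the WT range, and KO libraries 1 and 3 lay below it. With title number as a replicate block, 10 of 10 striatal markers had an unadjusted p under 0.05 by limma, and 0 were called. Of all 12863 genes, 503 had such a p with the block. The 10 mature oligodendrocyte markers summed to 1441 to 2772 FPKM in KO and 1823 to 3018 FPKM in WT, with 10 of 10 log2 fold changes below 0 (median -0.18) and 0 at an unadjusted p under 0.05 by limma. The 7 meningeal fibroblast markers summed to 84.8 to 107.9 FPKM in KO and 78.7 to 84.8 FPKM in WT, with 6 of 7 above 0 (median 0.25) and 2 at an unadjusted p under 0.05 by limma. With the block, 4 of 7 meningeal and 0 of 10 oligodendrocyte markers had such a p, and 0 were called. All tested endothelial (7 of 7), hippocampal neuron (5 of 5) and cerebellar granule cell (3 of 3) markers were above 0. None of these had an unadjusted p under 0.05 by limma without the block. With it, 2 endothelial and 1 hippocampal neuron markers had such a p, and 0 were called. The 5 choroid plexus markers summed to 7.02, 4.71 and 314 FPKM in KO libraries 1, 2 and 3 and to 152, 4.51 and 5.99 FPKM in WT, high in KO library 3 and WT library 1. Only 1 of the 5, *Ttr*, averaged at least 1 FPKM, so the high sums are largely those of 1 gene. *Folr1*, *Kl*, *Aqp1* and *Clic6* averaged under 1 FPKM. Striatal neurons also express NMDA receptor subunits, and the part of these or the other cell types in the subunit values was not tested. In bulk tissue, fewer cells of a type and less RNA per cell cannot be told apart.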

How the data were processed

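The authors deposited 1 table of FPKM values, made with HOMER analyzeRepeats.pl per the file headers, which counts reads over exons on mm10 with the transcripts of a gene condensed to 1 row. The submitters' processing notes name STAR 2.4.0k, HOMER 4.8.3 and FastQC. Of the 12 libraries in that command, the 6 with columns were analysed, and no strand option appears in it. Per the file headers, the length column gives the exon length of each model.

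Library totals were estimated from the steps of 1 read in the deposited FPKM values: 100% of 4898 to 7152 values checked per library were whole within 0.1 read. Reads per gene are FPKM × length × total.

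The test was limma 3.58.1 (R 4.3.3), 2-sided with a trend, on log2(FPKM + 1) for the 12863 genes that averaged at least 1 FPKM, with Benjamini-Hochberg adjustment over all of them and a threshold of 0.05. Ratios were tested by exact permutation over libraries (scipy 1.17.1), with exact sign flips within title numbers as an alternative. Exon bases beyond a model's 3′ end were counted in GENCODE vM21 protein-coding transcripts of the same symbol, chromosome and strand; its build GRCm38 is that of mm10. Other software was Python 3.11.15, numpy 2.4.6, pandas 2.3.3 and matplotlib 3.10.9. The fits were tested on simulated data.

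Libraries with the same title number deviated together: the correlations of deviations from the group means were 0.43, 0.71 and 0.67 for numbers 1, 2 and 3, over the threshold of 0.1, so title number entered as a replicate block in an alternative fit. Other alternatives were a pseudocount of 0.1, no filter, quantile normalization, voom on estimated reads and leaving out each library. Named genes were the members, *Chrdl1*, up to 3 genes per list with the smallest unadjusted p (1 of these and the sequences of 2 members are not reported here), and the 3 genes most like *Grin1*, *Grin2a*, *Grin2b* and the ratio. Others named, such as the marker genes and overlapping genes, were chosen after their values were seen. The members and lists were chosen with earlier results of these data known. Counts of any 2 libraries differed by more than sampling noise (chi-square at least 2.80 times its degrees of freedom).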

Additional observations from a re-analysis of the deposited data

How the results depend on the processing

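No subunit gene and no gene that acts with the receptor was called in KO against WT under any alternative run. The count over the whole table, 1 gene, was 2 with a pseudocount of 0.1, 6 without the filter and 0 without both libraries numbered 2, and 1 to 4 with 1 library left out, 4 being without KO library 2. With the replicate block it stayed at 1, and the block changed no call. The count of members called by title number was 2 without the filter, against 4. Over all genes that test called 1347 of 19781 without the filter, against 3936 of 12863. The log2 ratio of *Grin2a* to *Grin2b*, KO minus WT, was 0.014 also under the pairing, ran from -0.19 to 0.27 with 1 library left out, and was -0.10 without both libraries numbered 2. With 1 library left out, the share of *Grin2a* differed by -1.43 to 2.10 percentage points, and the log2 ratio of summed GluN2 genes to *Grin1* by -0.32 to 0.23. The log2 fold change of *Grin2b* was 0.019 with a pseudocount of 0.1, 0.032 by voom and 0.18 without number 2, against -0.025. With 1 library left out it ran from -0.54 to 0.60, that of *Grin2a* from -0.28 to 0.38, *Grin1* from -0.016 to 0.11, *Grin2c* from -0.058 to 0.12, *Grin2d* from -0.12 to 0.093, *Grin3a* from -0.061 to 0.16 and *Grin3b* from -0.093 to 0.043. The causes of these changes were not tested. Depth limits *Grin2a* and *Grin3b* most, with at least 142 and 66 estimated reads per library.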
